A study of Rattus norvegicus with 6 samples.

Results

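The genes described here are 8 genes of B cells, plasma cells and the transport of immunoglobulin A (IgA): *Pigr*, *Jchain*, *Cd79a*, *Cd79b*, *Ms4a1*, *Mzb1*, *Pou2af1* and *Pax5*. They were chosen by name for their roles, and 7 of them were measured among the 18166 genes tested; *Pax5* was not analysed here, since no transcript cluster carried its name in the gene table used. Intestinal RNA of 6 male Sprague Dawley pups at weaning, 3 weeks of age, was hybridised to Affymetrix rat gene arrays, 1 per pup. In the HFD-sitagliptin group (3 arrays) the dams were fed a high-fat diet and given the dipeptidyl peptidase 4 inhibitor sitagliptin by mouth through pregnancy and lactation. In the HFD group (3 arrays) the dams were fed the same diet without the drug, so all pups came from dams on a high-fat diet, and pups of normal-diet dams were not analysed here. The pups themselves were not dosed, the part of the intestine is not named in the labels, and separate litters are described in the methods but not in the labels, so p values measure the spread between these 6 arrays.

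IgA is the main antibody of the gut lumen. Plasma cells of the lamina propria join IgA into polymers with the J chain, and the polymeric immunoglobulin receptor of the epithelium carries the polymers across the cell and releases them with a piece of itself. Suckling rodents receive IgA mainly with milk, and their own IgA plasma cells fill the lamina propria around weaning. In whole tissue, fewer cells of a type and less RNA per cell cannot be told apart.

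None of the 7 measured genes passed the threshold of the methods, which asks for 1.5-fold or more together with p below 0.05 before adjustment, in limma, a linear model with moderated variances. Over all genes, 2.01% passed it (365 genes), with 0.705% higher and 1.3% lower in HFD-sitagliptin pups. None of the 7 genes had an unadjusted p below 0.05 in limma (0 of 7, against 5.72% of all genes) or in the methods' t-test (0 of 7). With a block term for replicate number, 1 of the 7 did, *Cd79a* (unadjusted p = 0.0378 and adjusted p = 0.65 in limma), below 1.5-fold, where 1181 of all genes had such a p. All log2 fold changes (HFD-sitagliptin minus HFD) were above 0, from 0.0072 for *Cd79b* to 0.45 for *Mzb1*, with a median of 0.30, where 51.9% of all genes tested lay above 0 and their median was 0.010. *Mzb1* and *Cd79a* had the 2 largest differences, at 1.37-fold and 1.34-fold. The values of the 3 HFD-sitagliptin arrays were spread more widely than those of the 3 HFD arrays for each of the 7 genes, with SD ratios of 1.7 to 8.25. Over all genes the SD was larger in HFD-sitagliptin arrays for 53.6%, and the median ratio was 1.09.

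**Figure D1:**
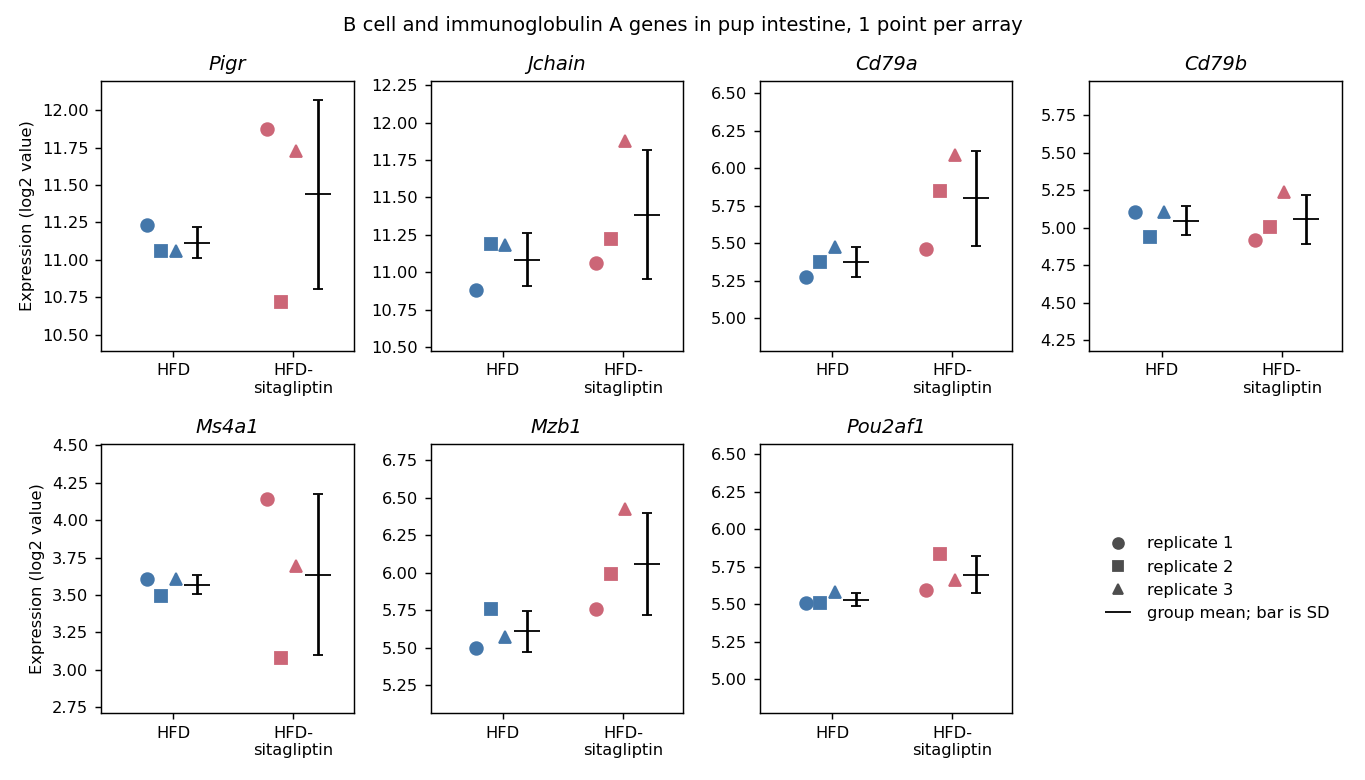
Expression (log2 value, vertical axis, the same span in each panel) of the 7 measured genes in the HFD arrays (blue) and the HFD-sitagliptin arrays (red), with 1 point per array, a symbol per replicate number, and the group mean with its SD. The HFD points lie close together for every gene, while *Pigr* spans 10.72 to 11.87 among the HFD-sitagliptin arrays, and the groups are separate for *Pou2af1* only.

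The arrays differed in markers of gut region, which bears on genes of the mucosa. In HFD-sitagliptin replicate 1 the colonic carbonic anhydrase gene *Car1* reached 12.41 on the log2 scale, against 3.41 to 4.04 elsewhere, and *Si*, the sucrase-isomaltase gene of the small intestine, lay at 2.72, against 11.39 to 12.49 elsewhere. The colonic markers did not move as one. *Hoxa13* was high in the same array (6.53, against 3.35 to 3.70), but the water channel gene *Aqp8* was high in HFD-sitagliptin replicate 3 instead (7.48, against 3.44 to 3.97). *Hoxd13* ranged from 2.89 to 3.24. Its mean lay at percentile 64.6 of the olfactory receptor genes used below as a guide to background, so it cannot show agreement or disagreement. *Fabp6*, the bile acid binding protein of the ileum, was at 13.16 in HFD-sitagliptin replicate 2, at 12.62 in HFD replicate 2 and at 3.61 to 7.36 in the other 4 arrays. The part of these differences between arrays in the values below was not tested, except where an array was left out. The array medians were 4.45 to 4.62.

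The promoters of 3 of the 8 genes were held in the RefSeq promoter table (build GRCr8, 250 bases before to 50 after the annotated start, all on the plus strand). They are shown because no promoter of the other genes was held there. *Pigr*, *Jchain* and *Cd79a* belong to the epithelial, plasma cell and B cell parts of the pathway. Of the factors in the lists below, *Usf1* and *Spi1* are known to bind an E-box and an Ets motif. Capitals mark matches to the E-box (CACGTG, its own reverse complement) and to the Ets motif (AGGAAGT), and the *Jchain* window held neither. The *Pigr* window is chr13:44850932-44851231, the *Jchain* window chr14:19822726-19823025 and the *Cd79a* window chr1:89621210-89621509. All 3 windows were matched to their genes by symbol.
Pigr: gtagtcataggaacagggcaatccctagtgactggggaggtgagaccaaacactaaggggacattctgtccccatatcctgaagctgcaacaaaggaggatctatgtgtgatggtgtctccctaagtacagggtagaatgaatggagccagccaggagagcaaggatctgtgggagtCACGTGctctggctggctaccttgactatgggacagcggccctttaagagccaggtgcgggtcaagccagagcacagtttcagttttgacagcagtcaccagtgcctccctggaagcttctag
Jchain: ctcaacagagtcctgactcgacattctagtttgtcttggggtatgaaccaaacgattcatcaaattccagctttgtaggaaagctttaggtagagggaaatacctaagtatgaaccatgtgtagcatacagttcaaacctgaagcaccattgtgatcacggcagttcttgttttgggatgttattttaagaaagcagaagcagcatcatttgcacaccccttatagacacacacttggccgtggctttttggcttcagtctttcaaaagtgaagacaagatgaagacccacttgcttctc
Cd79a: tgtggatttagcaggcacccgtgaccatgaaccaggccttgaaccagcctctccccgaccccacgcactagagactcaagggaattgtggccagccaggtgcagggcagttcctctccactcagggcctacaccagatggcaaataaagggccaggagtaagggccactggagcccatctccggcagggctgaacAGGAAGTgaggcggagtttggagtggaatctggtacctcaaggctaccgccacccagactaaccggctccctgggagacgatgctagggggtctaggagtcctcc
The E-box of *Pigr* starts at base -73 from the start site, and 6.42% of 33469 promoters of the same length held one. The Ets motif of *Cd79a* starts at base -55, and 8.41% of promoters held one on either strand. The octamer, ATGCAAAT, with which the product of *Pou2af1* acts, was in 0 of the 3 windows and in 1.78% of all promoters, and TATAAA was in 0 of the 3 and in 14.2%, both strands searched.

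*Pigr* encodes the polymeric immunoglobulin receptor, made by epithelial cells. Its log2 values were 11.87, 10.72 and 11.73 in HFD-sitagliptin replicates 1, 2 and 3 and 11.23, 11.06 and 11.06 in HFD replicates 1, 2 and 3. HFD-sitagliptin replicates 1 and 3 thus lay above every HFD array and replicate 2 below every HFD array. The group means were 11.44 ± 0.63 and 11.12 ± 0.10 (SD, n = 3 each), and the log2 fold change was 0.32 (standard error 0.31, 95% interval -0.42 to 1.06, limma adjusted p = 0.763). The call turned on 1 array. Without HFD-sitagliptin replicate 2, which had the highest *Fabp6* value, the log2 fold change of *Pigr* was 0.68 and passed the threshold (unadjusted p = 0.00392 in limma). It was 0.66 and passed too without both arrays numbered 2 (unadjusted p = 0.0137 in limma). Without HFD-sitagliptin replicate 1, the array high in *Car1*, it was 0.11. Of the epithelial genes, *Epcam* ranged from 10.97 to 11.32 over the 6 arrays. In HFD-sitagliptin replicate 1 *Vil1* was at 9.43, against 11.01 to 11.31 elsewhere, and *Krt20* at 10.37, against 11.26 to 11.48 elsewhere. *Cdh1* was lowest there too, while *Krt8*, *Krt18*, *Krt19*, *Cdx1*, *Cdx2* and *Elf3* were highest there. The 12 epithelial genes had a median deviation from their means of 0.12 in that array. Their part in the values of *Pigr* was not tested.

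*Jchain* and *Mzb1* mark plasma cells. *Jchain* encodes the joining chain of polymeric IgA and IgM, and *Mzb1* a chaperone of the endoplasmic reticulum that helps assemble and secrete antibodies. *Jchain* had log2 values of 11.06, 11.22 and 11.87 in HFD-sitagliptin replicates 1, 2 and 3, against 10.88, 11.19 and 11.18 in HFD replicates 1, 2 and 3. Its groups overlapped, and HFD-sitagliptin replicate 3 stood above the rest. *Mzb1* had values of 5.76, 5.99 and 6.43 in the HFD-sitagliptin arrays, in the same order, and of 5.50, 5.76 and 5.57 in the HFD arrays. Its groups met at one value, shared by HFD-sitagliptin replicate 1 and HFD replicate 2, and replicate 3 was again the highest. The log2 fold changes were 0.30 for *Jchain* (95% interval -0.26 to 0.87, limma adjusted p = 0.73) and 0.45 for *Mzb1* (95% interval -0.019 to 0.92, limma adjusted p = 0.718). Without HFD-sitagliptin replicate 3 they were 0.057 and 0.27. Without HFD-sitagliptin replicate 1 that of *Mzb1* was 0.60 and passed the threshold (unadjusted p = 0.0175 in limma).

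*Cd79a* and *Cd79b* encode the paired signalling chains of the B cell antigen receptor. *Cd79a* had log2 values of 5.46, 5.85 and 6.09 in HFD-sitagliptin replicates 1, 2 and 3 and of 5.28, 5.37 and 5.47 in HFD replicates 1, 2 and 3. HFD-sitagliptin replicates 2 and 3 lay above all HFD arrays, while replicate 1 lay just below the highest of them. The log2 fold change was 0.42 (standard error 0.18, 95% interval -0.016 to 0.86, limma adjusted p = 0.718). Without HFD-sitagliptin replicate 1 it was 0.59 and passed the threshold (unadjusted p = 0.00637 in limma), and without HFD-sitagliptin replicate 3 it was 0.28. *Cd79b* had values of 4.92, 5.01 and 5.24 in the HFD-sitagliptin arrays and of 5.10, 4.94 and 5.10 in the HFD arrays. These groups overlapped throughout, and the fold change was 1.01 with a 95% interval of 0.804 to 1.26. Its direction was not settled, since the log2 fold change was -0.050 after quantile normalization and -0.055 with each array centred on its median.

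*Ms4a1* encodes CD20, a surface protein of B cells that plasma cells lose, and *Pou2af1* a coactivator of octamer-binding factors in B cells and plasma cells. *Ms4a1* had log2 values of 4.14, 3.08 and 3.69 in HFD-sitagliptin replicates 1, 2 and 3 and of 3.61, 3.49 and 3.61 in HFD replicates 1, 2 and 3. As for *Pigr*, both the highest and the lowest array were HFD-sitagliptin arrays, replicates 1 and 2. The log2 fold change was 0.067 (95% interval -0.57 to 0.71, limma adjusted p = 0.941), and it was -0.19 without HFD-sitagliptin replicate 1. As a rough guide to background, since probes differ in brightness, means were placed among those of 1185 olfactory receptor genes, which intestine hardly uses. *Ms4a1* lay at percentile 81.0 of them and the other 6 genes above percentile 95. *Pou2af1* had values of 5.59, 5.84 and 5.66 in the HFD-sitagliptin arrays and of 5.51, 5.51 and 5.58 in the HFD arrays. It was the 1 gene of 7 whose groups did not overlap, and all its values lay within 0.33 of each other; 5.97% of all genes tested were higher without overlap. Its log2 fold change was 0.17 (95% interval -0.12 to 0.45, limma adjusted p = 0.72).

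**Figure D2:**
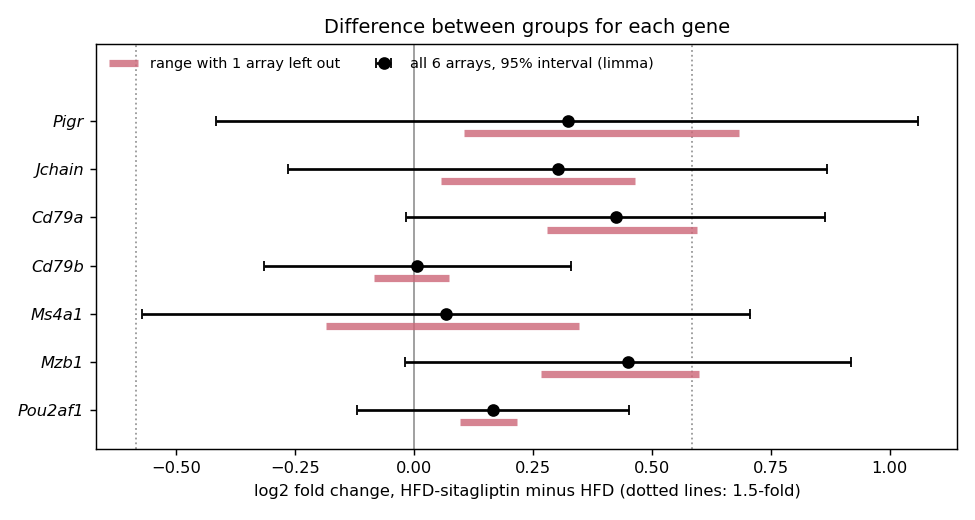
Log2 fold change of the 7 genes, HFD-sitagliptin minus HFD (horizontal axis), with all 6 arrays (black points, 95% intervals of limma) and the range over the 6 fits with 1 array left out (red bars); dotted lines mark 1.5-fold. All intervals include 0, and the red bars of *Pigr*, *Cd79a* and *Mzb1* reach past 1.5-fold, to 0.68, 0.59 and 0.60.

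The 7 genes did not follow 1 pattern over the arrays. HFD-sitagliptin replicate 3 had the highest value of 4 of them, *Jchain*, *Cd79a*, *Cd79b* and *Mzb1*, at 0.64, 0.50, 0.19 and 0.59 above each gene's mean over the 6 arrays on the log2 scale. HFD-sitagliptin replicate 1 had the highest value of *Pigr* and *Ms4a1*, at 0.59 and 0.54 above their means, and HFD-sitagliptin replicate 2 had the lowest of both, at -0.56 and -0.53. HFD replicate 1 had the lowest values of *Jchain*, *Cd79a* and *Mzb1*, at -0.355, -0.31 and -0.34. No HFD array had the highest value of any of the 7 genes. *Spib*, an Ets factor of B cells and of some epithelial cells, and *Rgs13*, a regulator of G protein signalling of germinal centre B cells and also of tuft and mast cells, were highest in HFD-sitagliptin replicate 3 as well, at 1.40 and 0.95 above their means.

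**Figure D3:**
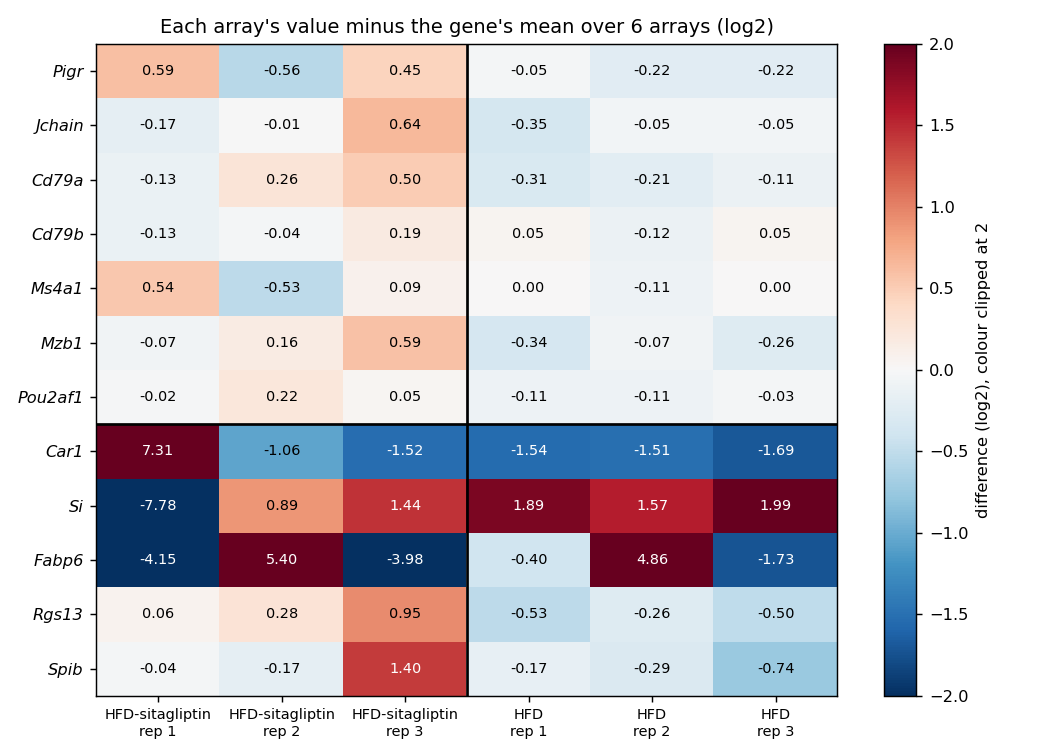
Log2 value of each array minus the mean of the gene over the 6 arrays, with 1 row per gene and 1 column per array; the 7 measured genes are above the horizontal line and region or follicle genes below it, and the colour is clipped at 2. HFD-sitagliptin replicate 3 is the highest array for *Jchain*, *Cd79a*, *Cd79b*, *Mzb1*, *Rgs13* and *Spib*, and replicates 1 and 2 lie on opposite sides for *Pigr* and *Ms4a1*.

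By profile over the 6 arrays, the genes nearest to *Pigr* were *H2ac25*, *Fzd2*, *Slc16a12*, *Cwc15-ps3* and *Rps12l3*. Likeness was the root mean square difference of log2 values centred on each gene's mean, over 4036 genes whose values span at least 1, and it was 0.099 to 0.18 for these 5. Nearest to the mean of *Jchain* and *Mzb1* were *Adad1*, *Cysltr2*, *Vom2r3*, *Or5w17* and *Trim58*, at 0.11 to 0.17. Nearest to the mean of the 4 measured B cell genes, *Cd79a*, *Cd79b*, *Ms4a1* and *Pou2af1*, were *Tmem151b*, *Adad1*, *Zbtb8a*, *Cysltr2* and *Rexo1l1-ps1*, at 0.21 to 0.24. That mean spanned only 0.34, less than any gene it was compared with, so these 5 are near to it only loosely. Percentile 95 of the olfactory receptor means, a rough guide to background, was 4.44. *Adad1* (2.57 to 3.65), *Vom2r3* (2.91 to 4.13), *Or5w17* (1.27 to 2.67) and *Rexo1l1-ps1* (2.02 to 3.02) lay below it in every array. *Or5w17* is itself an olfactory receptor gene. *Cysltr2* and *Trim58* lay above it only in HFD-sitagliptin replicate 3, at 4.65 and 4.66. *Cwc15-ps3*, near to *Pigr*, ran from 3.80 to 5.04.

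Other B cell genes were read from lists of the same kind. Of 22 measured genes of the B cell surface and its receptor signalling, 0 passed the threshold in limma, where 2.01% of all genes did, and their median log2 fold change was 0.13 with a range from -0.32 to 0.48. The 3 with the smallest p were *Tnfrsf13b*, the receptor TACI for the survival factors BAFF and APRIL (0.33), *Plcg2*, the phospholipase of receptor signalling (0.34), and *Blnk*, its adaptor (0.48). *Tnfrsf13b* was at 4.78, 4.61 and 4.90 in HFD-sitagliptin replicates 1, 2 and 3 and at 4.20, 4.51 and 4.60 in HFD replicates 1, 2 and 3, so its groups were separate by a small margin. *Blnk* passed the threshold without HFD replicate 1, at 0.69. *Cr2*, the complement receptor of B cells and follicular dendritic cells, ranged from 2.36 to 2.81, at percentile 47.4 of the olfactory receptor genes. Of 13 transcription factors of B cells, *Spi1*, an Ets factor shared with phagocytes, was higher past the threshold (0.59, standard error 0.14, limma adjusted p = 0.718) and 12 were not past it, with a list median of 0.12 and a range from -0.46 to 0.79. The highest was *Spib* at 0.79 (standard error 0.43), with overlapping groups. *Id3*, an inhibitor of E proteins, was at 0.71 (standard error 0.34) and passed with a block term for replicate number and without HFD-sitagliptin replicate 1 or HFD replicate 3. Leaving out arrays in turn gave *Spi1* 0.52 to 0.69, and it kept its call only without HFD-sitagliptin replicate 3 or without HFD replicate 3. *Bcl11a* and *Ikzf1* had unadjusted p values under 0.05 in limma with log2 fold changes of -0.46 and 0.39, and *Bcl11a* passed without HFD replicate 3, at -0.61.

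Among 13 measured genes of germinal centres and follicles, where IgA-switched B cells arise, *Rgs13* was higher past the threshold and 12 were not past it (median 0.11). The share higher past it over all genes was 0.705%. *Rgs13* had log2 values of 5.87, 6.08 and 6.75 in HFD-sitagliptin replicates 1, 2 and 3 and of 5.27, 5.54 and 5.30 in HFD replicates 1, 2 and 3. The groups were separate, and the log2 fold change was 0.86 (standard error 0.24, limma adjusted p = 0.718), with a range of 0.60 to 1.05 over the 6 fits with 1 array left out, all past the threshold. *Cxcl13*, the chemokine that draws B cells into follicles, was at 9.16 in HFD-sitagliptin replicate 1, 6.08 in HFD replicate 1 and 4.17 to 4.57 in the other 4 arrays. *Gp2*, a receptor of the M cells over follicles, was higher past the threshold (0.59, standard error 0.19, limma adjusted p = 0.718), at 4.24 to 4.37 in HFD-sitagliptin arrays and 3.47 to 4.11 in HFD arrays. It was the 1 of 7 genes of follicle-associated epithelium to pass, and its mean lay at percentile 89.7 of the olfactory receptor genes. *Gp2* no longer passed when HFD-sitagliptin replicate 1, HFD replicate 1 or HFD replicate 3 was left out (0.47 to 0.79 over the 6 fits).

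Of 13 measured genes of the plasma cell programme, 0 passed the threshold in limma, with a median log2 fold change of 0.053, and 2 had an unadjusted p under 0.05, where 5.72% of all genes did. *Irf4*, a transcription factor that plasma cells require, was at 5.50, 5.75 and 5.63 in HFD-sitagliptin replicates 1, 2 and 3 and at 5.23, 5.38 and 5.24 in the HFD replicates (log2 fold change 0.34, standard error 0.12). *Xbp1*, the secretory pathway factor of plasma cells and also of goblet and Paneth cells, was at 10.11, 9.66 and 9.96 in the HFD-sitagliptin arrays and at 10.85, 10.37 and 10.19 in the HFD arrays. Both had separate groups, as 11.5% of all genes did, with *Irf4* above and *Xbp1* below the HFD arrays. The log2 fold change of *Xbp1* was -0.57 (standard error 0.21), and it passed the threshold without HFD-sitagliptin replicate 1, without HFD replicate 3, or with each array centred on its median (-0.71 to -0.38 with 1 array left out). *Ell2*, an elongation factor that favours secreted immunoglobulin transcripts, had a log2 fold change of -0.26.

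The immunoglobulin chains themselves were thinly covered. Of 13 constant-region names looked for, *Iglc1*, a lambda light chain gene, was matched, and its 2 transcript clusters disagreed, with log2 fold changes of 0.086 and 0.36 and the brighter cluster ran from 5.99 in HFD-sitagliptin replicate 3 to 8.03 in HFD replicate 3. Of 13 immunoglobulin variable or constant segments named by RefSeq biotype, *Ighvl1*, a heavy chain segment, was higher past the threshold and 12 were not past it (median 0.037, range -0.80 to 0.75). The share higher past it over all genes was 0.705%. *Ighvl1* was at 5.08, 4.74 and 4.504 in HFD-sitagliptin replicates 1, 2 and 3 and at 3.91, 3.84 and 4.31 in HFD replicates 1, 2 and 3. It passed in all 6 fits with 1 array left out (0.60 to 0.90), and its mean lay at percentile 94.3 of the olfactory receptor genes. Near-identical segments can share probes, so the value of a single segment is uncertain. No gene named for the IgA constant region itself was measured.

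Of 18 measured genes of IgA switching and plasma cell homing, *Il6*, a growth factor for plasma cells, was lower past the threshold and 17 were not past it (median 0.067). The share lower past it over all genes was 1.3%. *Tnfsf13*, which encodes APRIL, a factor for IgA switching and plasma cell survival, was at 6.54, 5.59 and 7.01 in HFD-sitagliptin replicates 1, 2 and 3 and at 6.07 to 6.16 in the HFD arrays. As for *Pigr*, replicate 2 was below all HFD arrays and replicates 1 and 3 were above them, and *Tnfsf13* passed without HFD-sitagliptin replicate 2 (0.67). The homing integrin chains *Itga4* and *Itgb7* had log2 fold changes of 0.36 and 0.31, and *Ccr10*, the homing receptor of IgA plasma cells, one of 0.049. *Ccl25*, the chemokine that draws them to the small intestine, was at 5.10 in HFD-sitagliptin replicate 1 and at 8.70 to 9.56 in the other 5 arrays. *Ccl28*, the ligand of *Ccr10* in colon, ranged from 5.64 to 6.79.

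Of 22 measured genes that induce *Pigr* or carry the inducing signals, 3 were lower past the threshold, 0 were higher and 19 were not past it. Over all genes, 1.3% were lower and 0.705% higher past it. The median log2 fold change of the 22 was -0.0086. The 3 were the cytokines *Tnf* (-0.78), *Ifng* (-0.65) and *Il1b* (-0.62), which with *Il6* (-0.67) stand in tables that the study drew from these arrays, so their number is not independent evidence of a direction. Among the olfactory receptor genes, the means of *Tnf*, *Ifng* and *Il6* took percentiles 87.1, 83.7 and 81.3. *Tnf* passed in all 6 fits with 1 array left out; *Il6* lost its call without HFD-sitagliptin replicate 3, *Ifng* without either replicate 2, and *Il1b* without either replicate 3, over ranges of -0.82 to -0.56, -0.80 to -0.52 and -0.75 to -0.49. *Usf1* and *Usf2*, factors that bind the E-box, had log2 fold changes of 0.28 and 0.14. Of 15 measured genes of vesicle traffic and antibody receptors, 0 passed the threshold in limma, with a median of -0.12, and 1 had an unadjusted p under 0.05, where 5.72% of all genes did. That gene was *Rab11a*, of recycling endosomes (-0.45, standard error 0.16), followed by its epithelial relative *Rab25* (-0.39) and the clathrin light chain *Cltb* (0.25). *Fcgrt*, the neonatal Fc receptor that takes up IgG from milk, was at 6.58 to 7.19 in HFD-sitagliptin and 6.71 to 6.94 in HFD arrays (log2 fold change 0.018).

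**Figure D4:**
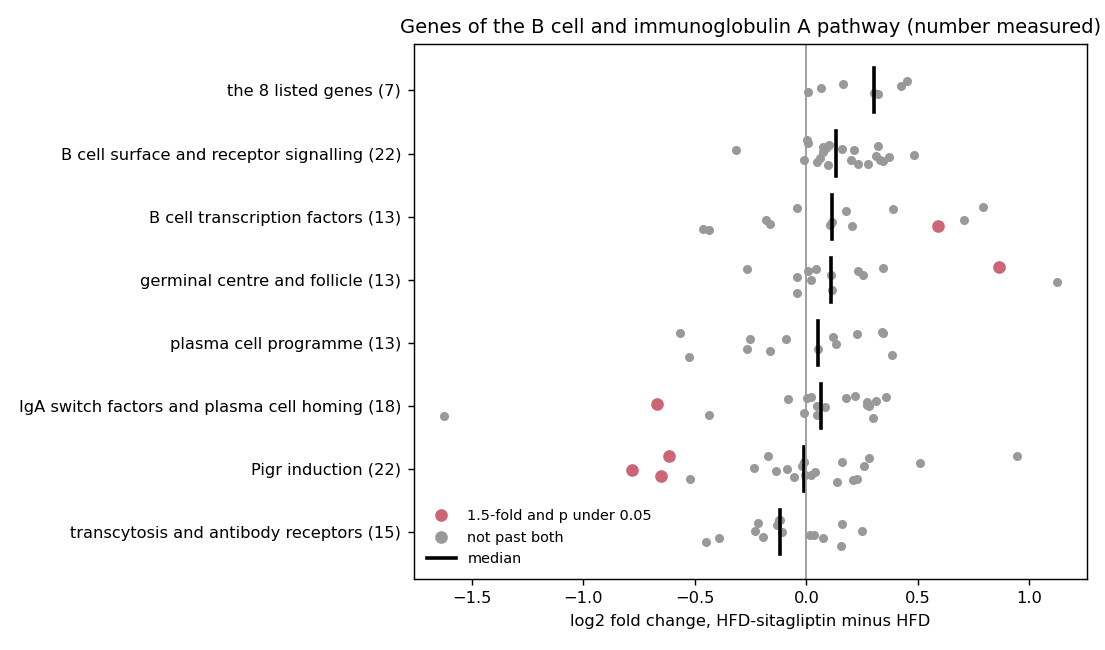
Log2 fold change, HFD-sitagliptin minus HFD (horizontal axis), of each measured gene of the 8 listed genes and of 7 lists of the pathway, with the number measured in brackets; red points passed 1.5-fold with an unadjusted p under 0.05, grey points did not, and black bars are medians. Of the lists other than the 8 genes, medians run from -0.12 to 0.13, and the red points are *Spi1*, *Rgs13*, *Il6*, *Tnf*, *Ifng* and *Il1b*.

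Over the 8 lists together, 6 of 117 measured genes passed the threshold (5.13%, against 2.01% of all genes), 2 higher and 4 lower, and the 4 lower ones are the cytokines named above. Those 4 and *Spi1* stand in tables that the study drew from these arrays. The lists were chosen with earlier results known, so the 5.13% is not independent evidence of an excess. No gene of any list had an adjusted p under 0.05 in limma, nor did any of the 18166 genes, of which 1040 had an unadjusted p under 0.05 (774 in the methods' t-test).

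Markers of other cells had the following values in the groups, with summed levels that overlapped in every list, and their part in the values above was not tested. Of 11 T cell genes 0 passed the threshold in limma (median 0.29), and their summed level on the log2 scale was 9.13 to 9.68 in HFD-sitagliptin and 9.12 to 9.24 in HFD arrays. *Cd3d*, *Cd3e* and *Cd3g*, of the T cell receptor complex, had log2 fold changes of 0.15, 0.32 and -1.22. Of 12 macrophage and dendritic cell genes 2 were higher, *Itgam* (0.67) and *Adgre1* (0.67), beside *Cd68* (0.059) and *Csf1r* (0.28) (median 0.42; summed level 11.0 to 12.55 and 11.71 to 12.47), against 0.705% of all genes. *Itgam* stands in tables that the study drew from these arrays, so these 2 are not independent evidence of an excess. Over a range of 0.51 to 0.84, *Itgam* lost its call when HFD-sitagliptin replicate 2 or when HFD replicate 3 was left out. *Adgre1* lost its call without HFD-sitagliptin replicate 1, HFD replicate 2 or HFD replicate 3 (0.42 to 0.82) and in the methods' t-test. Of 12 epithelial genes 0 passed (median 0.10; 13.61 to 13.93 and 13.68 to 13.78), and of 10 smooth muscle and stroma genes 0 passed (median 0.33; 12.18 to 14.03 and 12.20 to 12.66). The epithelial *Epcam*, *Cdh1* and *Vil1* had log2 fold changes of 0.13, -0.045 and -0.51, and the muscle genes *Myh11*, *Des* and *Tagln* ones of 0.43, 0.23 and 0.54, with the highest value of each muscle gene in HFD-sitagliptin replicate 1. Of 10 brush border genes 2 were lower, *Lct* (-3.71) and *Slc2a2* (-3.01) (median -1.9; 8.78 to 14.39 and 14.22 to 14.59), with *Si*, *Lct* and *Anpep* lowest in HFD-sitagliptin replicate 1. Over all genes, 1.3% were lower past the threshold. With arrays left out in turn, *Lct* and *Slc2a2* passed only without HFD-sitagliptin replicate 3, over -5.48 to -2.32 for *Lct* and -4.37 to -1.96 for *Slc2a2*, both had overlapping groups, and neither passed in the methods' t-test. Of 5 ileal genes, *Fabp6*, *Slc10a2* and *Nr1h4* among them, 0 passed (median -0.58; 9.53 to 13.76 and 10.91 to 13.13), and of 8 colonic and hindgut genes, *Car1*, *Hoxa13* and *Hoxd13* among them, 0 passed (median 0.19; 10.2 to 12.96 and 10.66 to 10.8). The 7 follicle-associated genes, led by *Gp2*, *Ccl20* (0.54) and *Tnfaip2* (0.27), had a median of 0.21 and summed levels of 8.99 to 9.62 and 9.06 to 9.50. Without HFD-sitagliptin replicate 1 the medians were 0.35 for T cells, 0.22 for macrophages and dendritic cells, -0.11 for muscle and stroma, -0.43 for the brush border and 0.098 for the follicle-associated genes. That of the 7 measured B cell and IgA genes was 0.22 without it, against 0.30 with it.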

How the data were processed

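Expression was measured in total RNA of the intestine of 6 pups, 3 per group, on Affymetrix GeneChip Rat Gene 2.0 ST arrays. The authors normalized the scans in GeneSpring, with an algorithm not given in the sources used here, and deposited 1 log2 value per transcript cluster and array; the log2 scale was inferred from the range of 0.58 to 13.55. A value was shared by 2 or more arrays in 23.84% of clusters. Of 36685 clusters, 18511 carried 1 gene symbol, 575 several and 17599 none in the platform's gene table. For 291 genes with more than 1 cluster the brightest was taken, which left 18166 genes, with no filter on low values. Arrays have no read depth, and their number limits the precision.

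Groups were compared in limma 3.58.1 (R 4.3.3) without covariates, with p values adjusted over all genes by the Benjamini-Hochberg method. The fit was tested on simulated data. Arrays of the same number deviated together (correlations of deviations from group means of 0.146, 0.284 and 0.148, against -0.24 to 0.0201 for other pairs), and the model was refitted with a term for that number. Neither labels nor methods state such a pairing, which was read from the values alone. The genes, lists, tests and alternatives were chosen with earlier results of these data known. The rule for named genes takes the 8 genes, the 5 nearest profiles and the first 3 measured genes of marker lists. In each other list it takes all genes past the threshold or otherwise the 3 with the smallest p. *Adgre1* and *Slc2a2*, past the threshold in marker lists, were named outside that rule, after their values were seen. *Spib*, *Id3*, *Krt8*, *Krt18*, *Krt19*, *Krt20*, *Cdx1*, *Cdx2*, *Elf3*, *Aqp8*, *Bcl11a*, *Ikzf1*, *Cxcl13*, *Cr2*, *Tnfsf13*, *Itga4*, *Itgb7*, *Ccr10*, *Ccl25*, *Ccl28*, *Usf1*, *Usf2*, *Fcgrt* and the segments by biotype were named after their values were seen.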

Additional observations from a re-analysis of the deposited data

How the results depend on the processing

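The count of 0 among the 7 genes held in 15 of 18 alternatives, but several of the 15 could not have raised it. The largest log2 fold change, 0.45 for *Mzb1*, was below 1.5-fold. With that limit kept, alternatives leaving the log2 fold changes unchanged could add no gene. These include other tests and, with 1 cluster for each of the 7, the mean of clusters. A stricter fold limit can only remove genes, and 0 of all genes met the adjusted limit of 0.25. The count was 1 (*Pigr*) without both replicate 2 arrays, and 0 to 2 with 1 array left out. The log2 fold change of *Cd79b* was -0.050 after quantile normalization, -0.055 with each array centred on its median, -0.025 without both replicate 2 arrays and -0.084 to 0.074 with 1 array left out. That of *Ms4a1* was -0.14 with array weights and -0.19 to 0.35 with 1 array left out. Directions of the other 5 genes held throughout, though alternatives that change only the test could not alter them. Over all genes, the count past the threshold was 158 in the methods' t-test, 57 at a fold change of at least 2, 1040 with no fold threshold, 0 at an adjusted p under 0.25 (limma; 1040 at an unadjusted p under 0.05) and 239 to 880 with 1 array left out, without HFD replicate 1 and without HFD-sitagliptin replicate 3. With each array centred on its median, 81 were higher and 390 lower, against 128 and 237. Over the 8 lists, 3 genes passed with dim genes left out, 0 at a fold change of at least 2, 11 with no fold threshold, 0 at an adjusted p under 0.25 and 4 to 9 with 1 array left out. With the replicate number as a block (replicate block), 476 genes, 0 of the 7 genes and 7 list genes passed, *Id3* being added. Alternatives that change only the test, such as the methods' t-test and the block term, leave the log2 fold changes as they are and could not move a list median. Of 120 list medians under all the alternatives, 33 moved by more than the spread between arrays. The cause was not tested in any of these. With array weights, *Cd79a* and *Mzb1* had unadjusted p values of 0.0169 and 0.0184 in limma (adjusted p = 0.658 for both), below 1.5-fold.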
